A study of Saccharomyces cerevisiae with 112 samples.

Results

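Messenger RNA of growing budding yeast that overexpresses the silencing protein Sir3 was compared with that of growing wild-type cells. The comparison uses 18 of the 112 samples of the series, chosen by strain and time from the labels: 6 libraries of the strain oeSir3 and 12 of the wild types wt1 and wt2. Each strain has 2 libraries at midlog (ML, before growth arrest) and at 1 and 2 population doublings after release from a 72 h culture at 30 °C (1D and 2D). Libraries of 1 strain that carry 1 replicate number form a series of 3 growing times, so 2 oeSir3 series stand against 4 wild-type series. Whether replicates are separate cultures is not in the labels. The p-values therefore cover the spread among these libraries, and that spread may be technical.

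The groups differ in more than SIR3. The strain oeSir3 (THC70) is in the W303 background. Its only SIR3 is an HA-tagged copy under a galactose-inducible promoter, placed at ura3-1 with URA3, and its own SIR3 is deleted (sir3∆::HIS3). It also lacks the mating-type locus (mat∆::TRP1) and HML (hml∆::kanMX), carries hmr::rHMRa, ade2-1, can1-100, lys2∆ and bar1∆::hisG, and was grown in galactose medium (YPGal). It also carries trp1-1 and mutant alleles of LEU2 and HIS3. The labels name the promoter once as GAL1 and once as GAL10, and list MATa beside the deletion of that locus. The wild types are S288C strains of mating type a grown in glucose medium (YPD): wt1 (NKI12318) carries bar1::HisG, HIS3 and Pgpd_CRE_EBD78 and the alleles ura3d0, trp1d63, met15d0, lys2d0, leu2d0 and his3d200, and wt2 (JOY1), from BY4741, carries ura3D, leu2D, his3D, met15D and bar1D:HIS5. Background, sugar, genotype and SIR3 level therefore change together between the groups, and their parts in any difference below cannot be told apart. No label names a batch. Coverage of 0 was filled in with 1 value per series in both oeSir3 series and in replicate 2 of each wild type, though not the same value in each, and with another value in every library in replicate 1 of the wild types.

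Sir3 is a structural protein of budding yeast heterochromatin. With Sir2, a histone deacetylase, and Sir4 it spreads from the chromosome ends and the silent mating cassettes and keeps the genes there off. Galactose is taken up by Gal2 and fed into glycolysis by Gal1, Gal7 and Gal10. Their genes are switched on by Gal4, which is held inactive by Gal80 until Gal3 senses the sugar. Glucose represses these genes, and also genes of respiration and of the use of other carbon sources.

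Promoter stretches of 6 galactose genes are shown because the same class of promoter drives the SIR3 copy. The stretch named GAL1 lies between GAL1 and GAL10 and serves both. Capitals mark each match of the Gal4 site (CGG and CCG with 11 bases of any kind between them, which reads the same on both strands). Sequences are from RefSeq, build R64, 5′ to 3′ on the strand of the gene, and matches can overlap.

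GAL1, chrII:278553-278636, plus strand: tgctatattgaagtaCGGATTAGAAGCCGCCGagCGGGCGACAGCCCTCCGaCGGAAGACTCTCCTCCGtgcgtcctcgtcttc

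GAL7, chrII:275688-275734, minus strand: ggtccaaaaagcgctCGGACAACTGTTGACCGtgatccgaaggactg

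GAL2, chrXII:289781-289915, plus strand: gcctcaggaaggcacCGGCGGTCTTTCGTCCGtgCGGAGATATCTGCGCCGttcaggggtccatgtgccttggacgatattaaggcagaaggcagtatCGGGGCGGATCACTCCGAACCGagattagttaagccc

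GAL3, chrIV:463131-463177, plus strand: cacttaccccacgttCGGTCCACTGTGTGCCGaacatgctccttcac

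GCY1, chrXV:550730-550776, plus strand: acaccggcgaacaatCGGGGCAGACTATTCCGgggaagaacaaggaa

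MTH1, chrIV:1016140-1016186, minus strand: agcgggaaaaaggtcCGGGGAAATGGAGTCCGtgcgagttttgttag

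Within 500 bases before the start codon, the Gal4 site occurred in 11 of the 13 galactose genes and in 2.93% of the 5192 tested genes with an R64 coding sequence. The list holds genes switched on by Gal4, so its share does not test the differences below. PGM2 and FUR4 had no match of these letters in this window. Among the 434 genes called higher that could be searched, 31 (7.14%) had a match, and 11 of these 31 are the galactose genes above.

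SIR3 stood far above wild type in every oeSir3 library. Levels here are linear values divided by the median tested gene of the library, and because coverage is per base they can be compared between genes. SIR3 was at 15.1, 18.3 and 18 in replicate 1 at ML, 1D and 2D and at 13.6, 18.9 and 16.1 in replicate 2. In the 12 wild-type libraries it ran from 0.159 to 0.560 (median 0.286). The lowest oeSir3 libraries were those at ML, and no oeSir3 library came near a wild-type one. The log2 difference was 5.72 ± 0.31 (SE), with a limma adjusted p of 1.70e-07. Among its partners, SIR1 differed by 0.31 ± 0.18 (adjusted p = 0.249), SIR4 by -0.05 ± 0.27 (0.923) and SIR2 by -0.79 ± 0.31 (0.101), and none was called over the growing times. At 2D alone SIR2 was lower (-1.11, adjusted p = 0.0344). SIR4 took the opposite sign under 4 alternatives, the spike-in scale among them. SIR2 ran from 0.385 to 0.569 in oeSir3 and from 0.583 to 2.0 in wild type. The groups thus did not overlap, by a narrow gap, and 7.25% of all tested genes lay below every wild-type library. The highest wild-type series for SIR2 was wt2 replicate 1, at 0.13 on the centred log2 scale against -0.43 to -0.32 in the others. Of 22 other genes for silencing and telomere proteins, among them RAP1, RIF1 and DOT1, 0 were called in the comparison over the growing times.

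**Figure D1:**
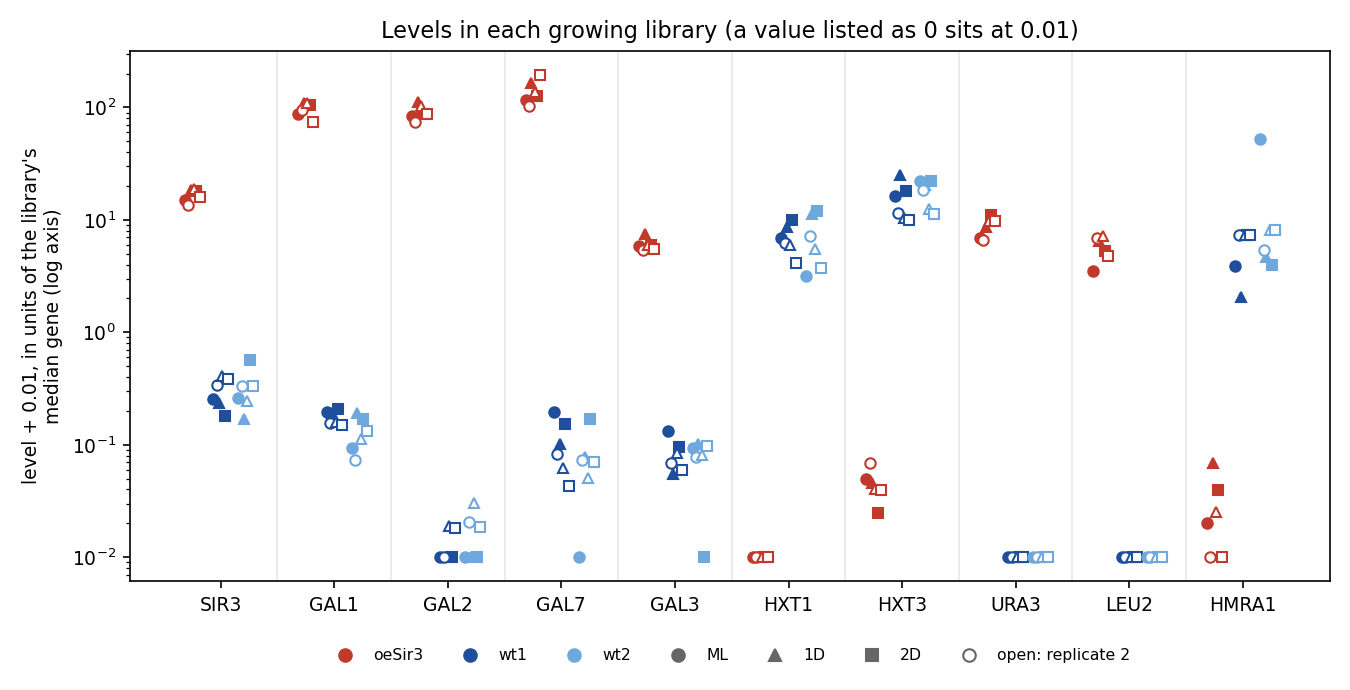
Level of 10 genes in each of the 18 growing libraries (vertical axis, level plus 0.01 relative to the library's median gene, log scale). Colour gives the strain, shape the time, and open symbols replicate 2. SIR3 sits between 13.6 and 18.9 in oeSir3 and at or below 0.560 in wild type, and HXT1 is listed at 0 in all 6 oeSir3 libraries.

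Over all genes, 441 of 5326 tested (8.28%) were higher in oeSir3 and 310 (5.82%) lower. A call needed an adjusted p under 0.05 in limma's test across the 16 series of all 8 strains and an absolute log2 difference of at least 1. The split between higher and lower depends on the scale. On the fission yeast spike-in scale, where the median difference of all genes is 0.57 in place of -0.10, 577 genes were higher and 66 lower, so that 89.7% of the calls were higher in place of 58.7%. The changes below are relative to the median gene of each library. Counts within lists are to be read against the 8.28% higher and 5.82% lower of all tested genes. Without replicate 1 of oeSir3 191 genes were lower. With replicate 2 of the wild types alone as the reference (filled in per series, as oeSir3 is), 421 were higher and 206 lower, and 578 of the 751 calls were made again.

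Few genes were called between the wild types: by the same rule 1 gene (0.0188%) was higher in wt1 than in wt2 and 3 (0.0563%) lower, 0.0751% in all. At an unadjusted p under 0.05 there were 106, and a count this low does not show that the wild types are alike. With the replicate number as a block the calls were again 1 and 3, and 161 genes had an unadjusted p under 0.05. Against wt1 alone oeSir3 had 421 genes higher (7.9%) and 222 lower (4.17%), and against wt2 alone 422 (7.92%) and 351 (6.59%). Of the 751 calls, 750 had the same sign against each wild type. All 6 oeSir3 libraries lay above all 12 wild-type libraries for 8.02% of the tested genes and below them for 7.25%. Among the called genes this held for 333 of those higher and 196 of those lower. More than 10-fold differences were found in 52 genes that were higher and 25 that were lower.

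**Figure D2:**
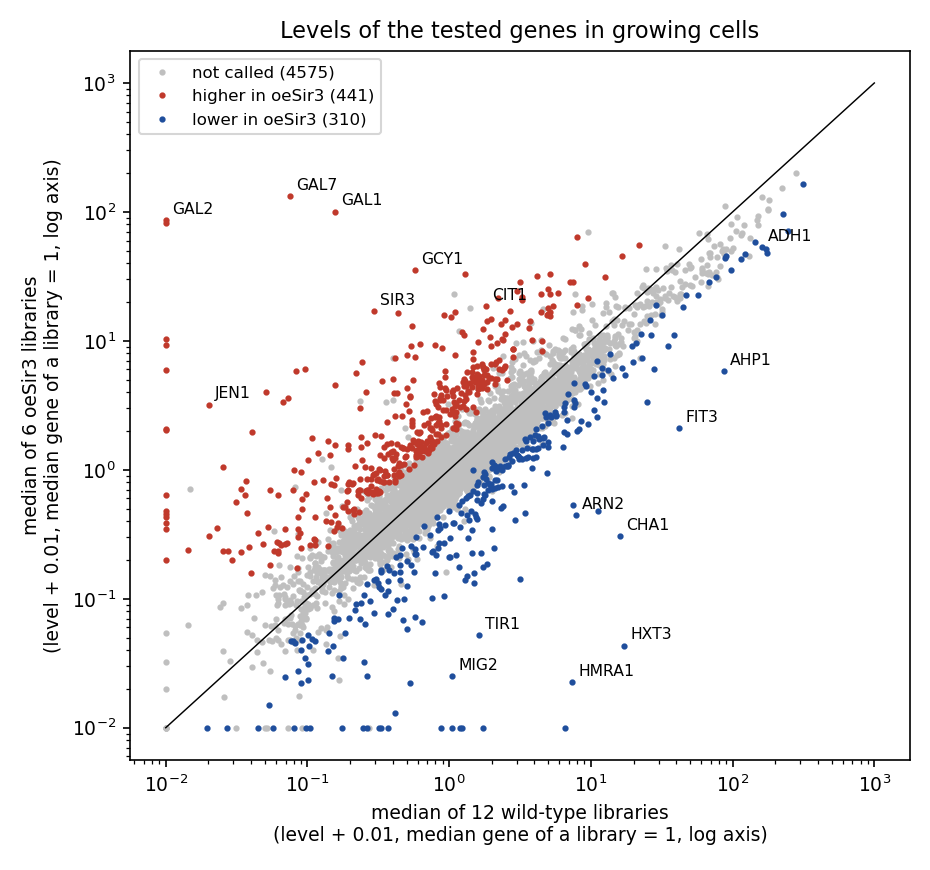
Median level of each tested gene in the 12 wild-type libraries (horizontal axis) and in the 6 oeSir3 libraries (vertical axis), level plus 0.01 relative to the library's median gene, log scales. The 441 genes called higher and the 310 called lower are coloured, and the line marks equal levels.

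Depth was read from the steps of the coverage. Reads over the median base of the median gene numbered 50 to 79.0 in the oeSir3 libraries. They numbered 73.0 to 93.5 in replicate 2 of the wild types and 8.0 to 33.0 in replicate 1. The reads of a whole gene are more. Replicates correlated across genes at 0.961 to 0.979 in oeSir3 and at 0.847 to 0.944 in wild type. The ML library of wt2 replicate 1 stood apart, with 8.0 reads on this measure and a slope of -0.79 against log coding length. It also had high values for several abundant genes (TDH3 at 1621 against a wild-type median of 312). Without that library 457 genes were higher and 306 lower.

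Genes that the genotypes name mostly followed them. URA3, the orotidine phosphate decarboxylase gene carried with the SIR3 copy, was at 6.58 to 11.0 in oeSir3 and listed at 0 in all 12 wild-type libraries. LEU2 was at 3.48 to 7.18 in oeSir3 and MET17, which encodes homocysteine synthase, at 8.05 to 12.3. Both were listed at 0 in every wild-type library. MET17 is the gene that the labels name MET15 and give as deleted in both wild types. The leu2 allele of oeSir3 and the alleles deleted in the wild types thus left different amounts of transcript. TRP1 was at 3.55 to 11.1 in oeSir3, at 1.00 to 3.46 in wt2 and at 0.00826 to 0.136 in wt1. LYS2 was at 0.636 to 1.20 in wt2, listed at 0 in wt1, and at 0 in 5 of 6 oeSir3 libraries. ADE2, mutated in W303, was at 0.292 to 0.638 against 1.27 to 2.47. HAP1, a haem-responsive activator with a Ty insertion in S288C, was at 0.338 to 0.464 against 0.857 to 1.84.

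Values of 3 genes bear on the labelled genotypes. BAR1, the pheromone protease gene named as disrupted in all 3 strains, was listed at 0 in wt2 but was at 0.814 to 1.98 in wt1 and at 0.652 to 1.20 in oeSir3. The part of BAR1 left by each disruption is not given, so its level does not test them. HIS3, labelled as deleted in wt2, was at 0.88 to 19.8 there, at 1.69 to 2.64 in wt1, which carries HIS3, and at 2.05 to 3.74 in oeSir3. The 19.8 is the wt2 ML library that stood apart, and the extent of the deletion is not given. HMRA1, whose reads cannot be told from those of the a1 gene at the mating-type locus, was at 2.07 to 52.5 in wild type and at 0 to 0.0595 in oeSir3 (log2 -7.68 ± 0.45, adjusted p = 3.09e-07). The highest of these was the wt2 ML library that stood apart, and the next was 8.10. Of 7 a-specific genes only BAR1 was called in either direction. The pheromone gene MFA1 was at -1.22 and the receptor gene STE2 at -0.69 (log2 differences). Of 11 haploid-specific genes FAR1, the inhibitor that arrests pheromone-treated cells, was higher (1.79 ± 0.28, adjusted p = 6.53e-04). The other call among them was AGA1, an anchor of the a-agglutinin, which was lower (-1.54 ± 0.22, 4.25e-04). AGA1 was not called at ML (-0.44, limma adjusted p = 0.377), and its levels overlapped, at 0.25 to 0.452 against 0.0833 to 2.0. Of 2 alpha-specific genes 1 was lower, and of 12 pheromone-induced genes 2 (16.7%), against 5.82% of all tested genes. In each of these lists 0 were higher, and on the spike-in scale 0 were lower.

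All 13 galactose genes were higher in oeSir3, with a median log2 difference of 4.58, against 8.28% of all tested genes. GAL7, the uridylyltransferase gene, was at 118, 164 and 128 in replicate 1 at ML, 1D and 2D, and at 103, 138 and 195 in replicate 2. In wild type it ran from 0 to 0.185 (median 0.0657), a log2 difference of 10.39 ± 0.40 (adjusted p = 7.85e-09). GAL1, the galactokinase gene, was at 74.3 to 111 in oeSir3 and at 0.0632 to 0.200 in wild type (9.17 ± 0.29, 1.30e-09). The permease gene GAL2 was at 74.7 to 112 against at most 0.0204 (11.36 ± 0.28, 4.09e-10). GAL10, the epimerase gene, was at 65.6 to 102 and is listed at 0 in every wild-type library. These genes were several times more abundant than SIR3 in the same libraries, in which GAL10 had a median level of 82.4.

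The regulators rose by less. The sensor gene GAL3 was at 5.41 to 7.51 against at most 0.123 (5.97 ± 0.21), the repressor gene GAL80 at 7.41 to 10.6 against 1.21 to 1.76 (2.50 ± 0.18) and the activator gene GAL4 at 0.279 to 0.403 against at most 0.0909 (2.03 ± 0.27). No library of GAL80 or GAL4 overlapped between the groups, and 8.02% of all tested genes lay above every wild-type library. GCY1, a glycerol dehydrogenase gene with a Gal4 site, was at 23.9 to 43.3 against 0.466 to 1.08, a log2 difference of 5.73 ± 0.18 (adjusted p = 1.30e-09). PGM2, which makes the phosphoglucomutase that links galactose to glycolysis, was at 3.35 to 4.55 against 0.318 to 1.79 (2.98 ± 0.24). MTH1, which represses hexose transporter genes, rose by 4.58 ± 0.25. FUR4, LAP3 and PCL10 rose by 1.72, 1.52 and 1.31 on the log2 scale. Without replicate 1 of oeSir3, 12 of the 13 were called.

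The glucose transporters split. HXT1, the low-affinity transporter gene induced by high glucose, was at 3.17 to 12 in wild type and listed at 0 in all 6 oeSir3 libraries. HXT3, of similar use, was at 9.99 to 25.1 in wild type and at 0.0149 to 0.0588 in oeSir3 (log2 -8.23 ± 0.26, adjusted p = 1.30e-09). HXT4 was lower too (-1.81 ± 0.25), while HXT2 was not called (-0.98). HXT7, a high-affinity transporter gene, was at 8.79, 17.0 and 14.6 in replicate 1 and at 27.9, 20.2 and 15.8 in replicate 2, against 0.0800 to 3.17 in wild type (5.14 ± 0.48, adjusted p = 1.67e-05). HXT6 is nearly identical to HXT7, so their reads may be split between them. Its log2 difference was 2.13 ± 0.45. HXT5, of slow growth, was 2.08 ± 0.31 higher.

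Of 24 genes of glucose sensing and repression 7 were higher and 3 lower. MIG2, a glucose-induced repressor gene, was at 0 to 0.0588 against 0.75 to 1.31 (-4.83 ± 0.27, adjusted p = 2.30e-07), and its relative MIG3 was lower by a log2 difference of -2.87 ± 0.33. STD1, the partner of MTH1, was lower as well (-2.80 ± 0.26). The hexokinase gene HXK1 was at 10.1 to 25.1 against 0.623 to 9.83 (3.52 ± 0.22). ADR1 and CAT8, activators of genes for non-fermented carbon, were 3.18 ± 0.33 and 2.79 ± 0.29 higher. The main repressor and its kinase were not called: MIG1 was at 0.17, SNF1 at 0.65 and HXK2 at 0.08 (log2 differences). Of 7 genes for sucrose and maltose use, the invertase gene SUC2 (2.25 ± 0.25), MAL33 (3.25 ± 0.28) and MAL11 (1.57 ± 0.20) were higher and 0 were lower.

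Mitochondrial energy genes were higher as a group. Of 32 genes of the respiratory chain and ATP synthase 27 were higher and 0 lower, with a median log2 difference of 2.33, against -0.10 for all tested genes. CYT1, cytochrome c1, was at 12.4 to 15.3 in oeSir3 and at 0.136 to 1.35 in wild type (4.51 ± 0.43, adjusted p = 1.68e-05). RIP1, the iron-sulfur protein of the same complex, was at 12.7 to 25.5 against 0.667 to 1.25 (4.09 ± 0.19, 5.22e-08). COX5A, a cytochrome oxidase subunit, was at 25.4 to 30.8 against 2.18 to 3.77 (3.25 ± 0.31), while its low-oxygen form COX5B was at -0.46 and was not called. The dehydrogenase genes NDI1 and NDE1 were 3.62 ± 0.36 and 2.53 ± 0.18 higher. CYC1, cytochrome c, had a log2 difference of 2.43 ± 0.99 and an adjusted p of 0.113, with 6 of 12 wild-type libraries listed at 0 and the highest at 8.78. CYB2, a lactate dehydrogenase that feeds cytochrome c, was at 4.32 to 6.2 against at most 0.159 (5.64 ± 0.32, 2.25e-07).

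Of 16 TCA cycle genes 13 were higher and 0 lower, with a median of 1.79. CIT1, citrate synthase, was at 14.8 to 25.1 against 0.720 to 2.83 (3.39 ± 0.22, adjusted p = 8.02e-07). The succinate dehydrogenase genes SDH1, SDH2 and SDH4 were 4.27, 3.97 and 3.11 higher on the log2 scale. Genes for the mitochondrial ribosome moved less far, with 42 of 62 higher, 0 lower and a median of 1.41. Their largest differences were those of MRPL24 (2.28 ± 0.20), RSM28 (2.15 ± 0.19) and MRPL40 (2.10 ± 0.34). The median of this list was 0.96 at ML, 1.7 at 1D and 1.56 at 2D, with 23, 45 and 41 genes called higher, against 6.95%, 8.22% and 8.39% of all tested genes.

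Genes for other carbon sources were mostly higher: 11 of 18 for gluconeogenesis and the glyoxylate cycle, with 3 lower. JEN1, a lactate and pyruvate transporter gene, was at 2.76 to 4.04 against at most 0.0407 (6.35 ± 0.30, adjusted p = 5.54e-08). ATO2 (4.03 ± 0.34), an acetate and ammonium transporter gene, and ALD4 (3.75 ± 0.20), the mitochondrial aldehyde dehydrogenase, were higher too. The cytosolic malate dehydrogenase gene MDH2 was lower (-2.49 ± 0.45), with ranges of 0.774 to 1.33 and 1.25 to 13.0 that overlapped. ATO3 (-1.62) and MAE1 (-1.53) were the other 2 that were lower. PCK1, of gluconeogenesis itself, was at 0.51 and was not called. Of 18 trehalose and glycogen genes 10 were higher and 0 lower, led by GAC1 (4.30 ± 0.37), the glycogen phosphorylase gene GPH1 (3.48 ± 0.21) and the branching enzyme gene GLC3 (3.10 ± 0.29).

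**Figure D3:**
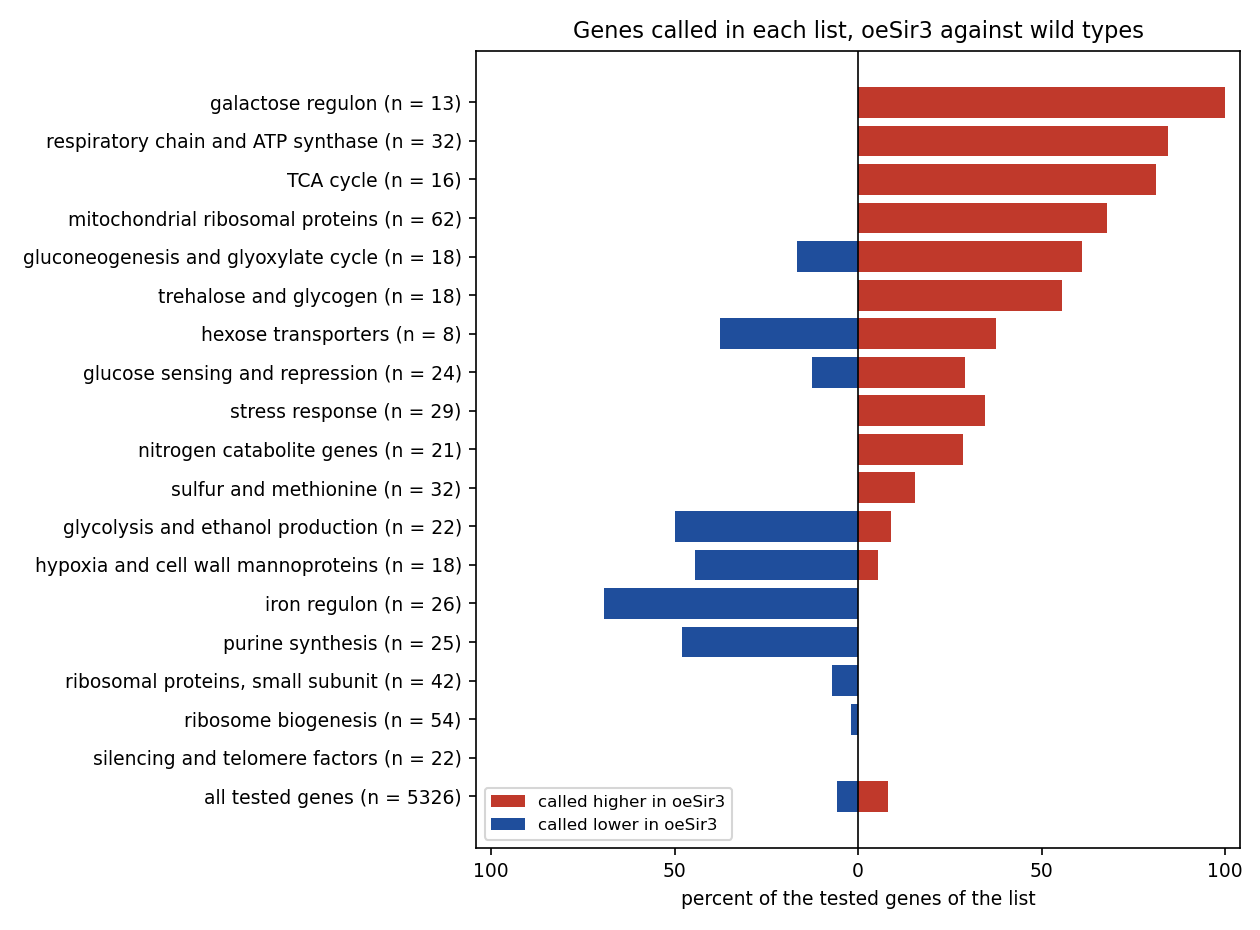
Percent of the tested genes of each list that were called higher (right) or lower (left) in oeSir3, with the number tested beside each name. All 13 galactose genes were higher, 18 of 26 iron genes lower, and the bottom bar gives all tested genes, at 8.28% and 5.82%.

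Glycolysis and ethanol production had 11 of 22 genes lower and 2 higher, with a median log2 difference of -0.98. PDC1, pyruvate decarboxylase, was at 34.3 to 64.1 in oeSir3 and at 122 to 292 in wild type (-1.92 ± 0.28, adjusted p = 4.93e-04). ADH1, the main ethanol-forming enzyme, was at 37.8 to 61.3 against 95.6 to 501 (-1.98 ± 0.40, 0.00404). ADH2, which uses ethanol and is close to ADH1 in sequence, was at 0.382 to 0.776 against 0 to 0.250 (3.45 ± 0.38). The minor pyruvate kinase gene PYK2 was also higher (1.37 ± 0.30). The falls rest on the scale and the reference: 0 of the 22 were lower on the spike-in scale, 4 with replicate 2 of the wild types alone, and 4 against wt1 alone.

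The iron regulon was the list with most genes lower: 18 of 26, with 0 higher and a median log2 difference of -1.73. These genes serve the uptake of iron and are switched on by Aft1 when iron is short. Promoter stretches of 5 of them are shown because the same short site recurs in them. Capitals mark matches of the Aft1 site (TGCACCC on either strand), in R64.

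FIT1, chrIV:1505061-1505199, minus strand: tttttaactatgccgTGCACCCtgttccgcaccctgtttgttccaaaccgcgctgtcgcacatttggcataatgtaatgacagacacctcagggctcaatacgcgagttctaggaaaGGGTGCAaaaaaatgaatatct

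FIT2, chrXV:1059185-1059421, plus strand: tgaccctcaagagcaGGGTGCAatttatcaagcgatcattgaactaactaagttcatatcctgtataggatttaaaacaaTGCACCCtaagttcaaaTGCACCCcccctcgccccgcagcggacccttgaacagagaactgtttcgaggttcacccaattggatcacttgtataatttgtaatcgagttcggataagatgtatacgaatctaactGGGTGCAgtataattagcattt

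FIT3, chrXV:1061218-1061355, minus strand: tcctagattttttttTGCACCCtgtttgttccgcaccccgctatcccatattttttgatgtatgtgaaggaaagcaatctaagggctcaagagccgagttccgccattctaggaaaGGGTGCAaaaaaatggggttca

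ARN2, chrVIII:10639-10675, minus strand: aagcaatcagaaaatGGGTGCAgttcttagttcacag

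FRE4, chrXIV:739499-739535, plus strand: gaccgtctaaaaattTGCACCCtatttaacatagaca

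Within 500 bases before the start codon this site occurred in 21 of the 26 iron genes and in 17 of the 18 that were lower. It occurred in 2.35% of the 5192 tested genes searched. The list holds genes switched on by Aft1, so its shares do not test the differences. Of the 292 genes called lower that could be searched, 20 (6.85%) had it, and 17 of these 20 are the iron genes above.

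The cell wall mannoprotein genes FIT1, FIT2 and FIT3, which hold siderophores, were among the genes of this list that fell most. FIT3 was at 1.99, 2.28 and 1.59 in replicate 1 and at 1.73, 3.62 and 2.20 in replicate 2, against 20.8 to 336 in wild type, or to 102 without the wt2 ML library that stood apart (-4.60 ± 0.46, adjusted p = 2.42e-05). FIT2 was at 0.334 to 0.846 against 3.74 to 223, or to 28.9 without that library (-4.56 ± 0.61) and FIT1 at 0.104 to 0.167 against 1.65 to 16.4 (-4.76 ± 0.55). The siderophore transporter gene ARN2 was at 0.200 to 0.459 against 4.58 to 19.6 (-4.61 ± 0.43, 1.67e-05), and ENB1 (-3.81 ± 0.34), SIT1 (-2.14 ± 0.26) and ARN1 (-2.13 ± 0.35) were lower as well. The reductase gene FRE4 was at 0 to 0.0357 against 0.0833 to 1.84 (-4.40 ± 0.29). The high-affinity uptake genes FET3 (-1.57 ± 0.23) and FTR1 (-1.22) differed by less. TIS11, which marks iron-related mRNAs for decay, was at -3.11 ± 0.59. FRE1 was at -0.63 and CCC2 at -0.21, and neither was called. On the spike-in scale 10 of the 26 were lower, and with replicate 2 of the wild types alone 16.

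Purine synthesis and its linked one-carbon and histidine steps had 12 of 25 genes (48%) lower, against 5.82% of all tested genes, and 0 higher. ADE17 was at 0.185 to 0.279 against 0.893 to 2.09 (-2.77 ± 0.26, adjusted p = 1.69e-05), and the glycine cleavage genes GCV1 and GCV3 were at -2.08 ± 0.48 and -1.86 ± 0.48. ADE2 is both in this list and mutated in oeSir3. The count was 2 on the spike-in scale and 8 with replicate 2 of the wild types alone. Of 12 pyrimidine genes URA1 (-2.78 ± 0.23), URA4 (-1.82 ± 0.20) and URA7 (-1.36) were lower, while URA3 and the uracil permease gene FUR4 were higher. Of 10 lysine genes LYS2, LYS20 (-1.69 ± 0.39) and LYS9 (-1.16 ± 0.25) were lower, and 0 of 10 were called against wt1, which like oeSir3 lacks LYS2. Of 32 sulfur genes 5 (15.6%) were higher, against 8.28% of all tested genes, and 0 lower. Among the 5 were MET17, MET2 (2.32 ± 0.21) and MET28 (1.57 ± 0.34). MET17, or MET15, is deleted in both wild types and was listed at 0 in every wild-type library.

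Among 18 genes of hypoxia and the cell wall, 8 (44.4%) were lower, against 5.82% of all tested genes, and 1, CYC7, was higher. The CYC7 call was lost against wt1 alone (adjusted p = 0.0524) and against wt2 alone (0.0837). TIR1, a mannoprotein gene of cold and low oxygen, was at 0 to 0.0595 against 0.682 to 4.50 (-5.06 ± 0.49, adjusted p = 1.91e-05). ANB1 was at -3.08 ± 0.36 and AAC3 at -2.68 ± 0.54, both forms of genes used at low oxygen. On the spike-in scale 2 of the 18 were lower. Of 21 haem and Hap1-regulated genes 8 (38.1%) were higher, against 8.28% of all tested genes, and 2, AAC3 and HAP1 itself, lower.

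Other named genes with large differences fall outside these lists. CHA1, the serine and threonine deaminase gene, was at 0.170 to 0.446 against 8.85 to 33.3 (-5.70 ± 0.30, adjusted p = 1.26e-07). It lies 15.8 kb from the left end of chromosome III. Its place relative to HML, which is deleted in oeSir3, was not examined. AHP1, a peroxiredoxin gene, was at 4.91 to 8.67 against 30.4 to 1064, with the highest value in the wt2 ML library that stood apart (-4.0 ± 0.62). QDR2, a drug and cation exporter gene, was at -3.48 ± 0.34 and GPX2, a glutathione peroxidase gene, at -3.34 ± 0.43. Among those higher, COX26, of the respiratory supercomplex, was at 2.10 to 6.81 against at most 0.250 (5.86 ± 0.50). SDD1 (5.33 ± 0.34), ISF1 (5.16 ± 0.32), the peptide transporter gene PTR2 (4.97 ± 0.52) and MPC3 (4.72 ± 0.48), a mitochondrial pyruvate carrier subunit gene, were also higher.

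Of 29 stress genes 10 (34.5%) were higher and 0 lower, against 8.28% and 5.82% of all tested genes. HSP12, a small membrane heat shock gene, was at 4.45, 1.65 and 1.96 in replicate 1 and at 9.03, 1.54 and 2.66 in replicate 2, against 0.123 to 3.58 in wild type (2.46 ± 0.44, adjusted p = 0.00192). It was highest at ML in both oeSir3 replicates. The groups overlapped through the wt2 ML library that stood apart, and the next wild-type value was 0.965. Of 21 nitrogen genes 6 (28.6%) were higher and 0 lower, led by the proline permease gene PUT4, at 1.63 to 2.25 against at most 0.0351 (5.71 ± 0.29, 1.06e-07). ENA1, the sodium pump gene, which has close copies, was at 0.985 to 1.52 against at most 0.0967 (4.47 ± 0.34), and the sodium-phosphate transporter gene PHO89 was at 4.22 to 5.93 against at most 1.55 (3.30 ± 0.35).

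Of 42 small-subunit ribosomal protein genes 3 (7.14%) were lower, near the 5.82% of all tested genes, and 0 higher, with a median of -0.95. This median was -1.47 at ML, and 0 of the 42 were lower on the spike-in scale. Many of these genes have near-identical copies. RPS25B (-2.03 ± 0.44) had the lowest value. Of 54 ribosome biogenesis genes NSR1, at -1.13 ± 0.22, was the 1 that was lower. Of 23 G1/S genes the cyclin gene CLN1 was higher (1.20 ± 0.21), a call lost with replicate 2 of the wild types alone. The lists of 16 G2/M genes, 8 core histone genes and 32 proteasome genes had 0 calls, and so did 14 genes of daughter cell separation, of which 2 were lower with replicate 2 of the wild types alone. On the spike-in scale the median gene stood at 0.714 ± 0.172 (log2, SD, n = 2 series) in oeSir3 and at 0.0186 ± 0.692 (n = 4) in wild type. The exact two-sided permutation test of this difference (0.70) gave p = 0.267, where 0.0667 is the smallest possible. Without wt2 replicate 1 the difference was 0.37, and with replicate 2 of the wild types alone it was 0.24.

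Genes near chromosome ends, where Sir3 acts in wild type, were lower more often than other genes. Distances are from the R64 annotation. Of the 76 genes in the file within 10 kb of an end 30 passed the filter on low values, and of 185 within 20 kb 105 passed. Within 10 kb 10 of 30 (33.3%) were lower and 1 higher, with a median log2 difference of -0.77. The filter reads the growing libraries of all 8 strains, and 4 of the 30 genes were above its limit in 0 of the 18 libraries compared. Of the 21 that were above it in at least 4 of those 18, 7 were lower and 1 higher, and with no filter 11 of 52 (21.2%) were lower, against 5.64% of all genes. From 10 to 20 kb 12 of 75 (16%) were lower and 9 higher, and from 20 to 30 kb 13 of 112 each way. Beyond 50 kb 233 of 4707 (4.95%) were lower, with a median of -0.10. On the spike-in scale 4 of the 30 were lower and the median was -0.09, which is 0.66 below the median of all genes. With replicate 2 of the wild types alone 7 of the 30 were lower. Of the 10 lower genes, ARN2 and FET4 are also iron genes, and of the 27 that are not iron genes 8 (29.6%) were lower. In 8 of the 30 all 6 oeSir3 libraries lay below all 12 wild-type libraries, against 7.25% of all tested genes.

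Several of these 10 genes share a chromosome end, so they do not stand for 10 separate ends. COS12, YGL262W and YPS5 lie near the left end of chromosome VII. AIF1 and COS10 lie near the right end of XIV, and YMR320W and FET4 near the right end of XIII. Among these 10 genes, 4 are listed at 0 in all 6 oeSir3 libraries and 6 are not. AIF1, a mitochondrial cell death effector gene at 5.59 kb, was at 0.643 to 1.54 in wild type and listed at 0 in oeSir3. COS12, at 2.79 kb and of a family of subtelomeric membrane protein genes, was at 0.0407 to 0.554 in wild type and listed at 0 in oeSir3, as were YGL262W and YPS5. Both were low in wild type too: YGL262W was at most 0.0455 and at 0 in 5 of 12 libraries, and YPS5 at most 0.0923 and at 0 in 2. YMR320W, at 7.38 kb, had a log2 difference of -4.07 ± 0.26 and IRC7, at 4.93 kb, of -1.85 ± 0.22. The 1 higher gene within 10 kb was YPS6, at 0.200 to 0.583 against 0.0571 to 0.136 (1.68 ± 0.23). The multidrug transporter gene PDR18, at 15.0 kb, was listed at 0 in all oeSir3 libraries and was at 0.136 to 0.351 in wild type. CHA1, given above, lies at 15.8 kb and was also lower. Whether W303 carries each of these genes was not tested. Between 10 and 20 kb the genes that were higher include HXK1, MAL33, PHO89, MAL11, MMP1 and GIT1.

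The deficit near the ends was deepest at ML. Within 10 kb the median log2 difference was -1.62 at ML, with 14 of 30 genes lower, -0.44 at 1D with 5 lower and -0.74 at 2D with 8 lower. The backgrounds are 6.53% of all genes lower at ML, 4.73% at 1D and 6.1% at 2D. These fits by time take each library as an independent value, although 3 of them share a series. By library, the median difference of the 30 genes from the mean of the wild types at the same time was -1.99, -0.36 and -0.59 in replicate 1 and -1.25, -0.44 and -0.86 in replicate 2. Against replicate 2 of the wild types alone the ML values were -1.45 and -0.85. In 23 of the 30 genes (76.7%) the difference at ML was below that at both doublings, against 40.7% of all tested genes. These 30 genes passed the filter over all strains. The values by time were not limited to the 21 that passed it within the 18 libraries compared. At ML 9 of the 30 were lower without replicate 1 of oeSir3.

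**Figure D4:**
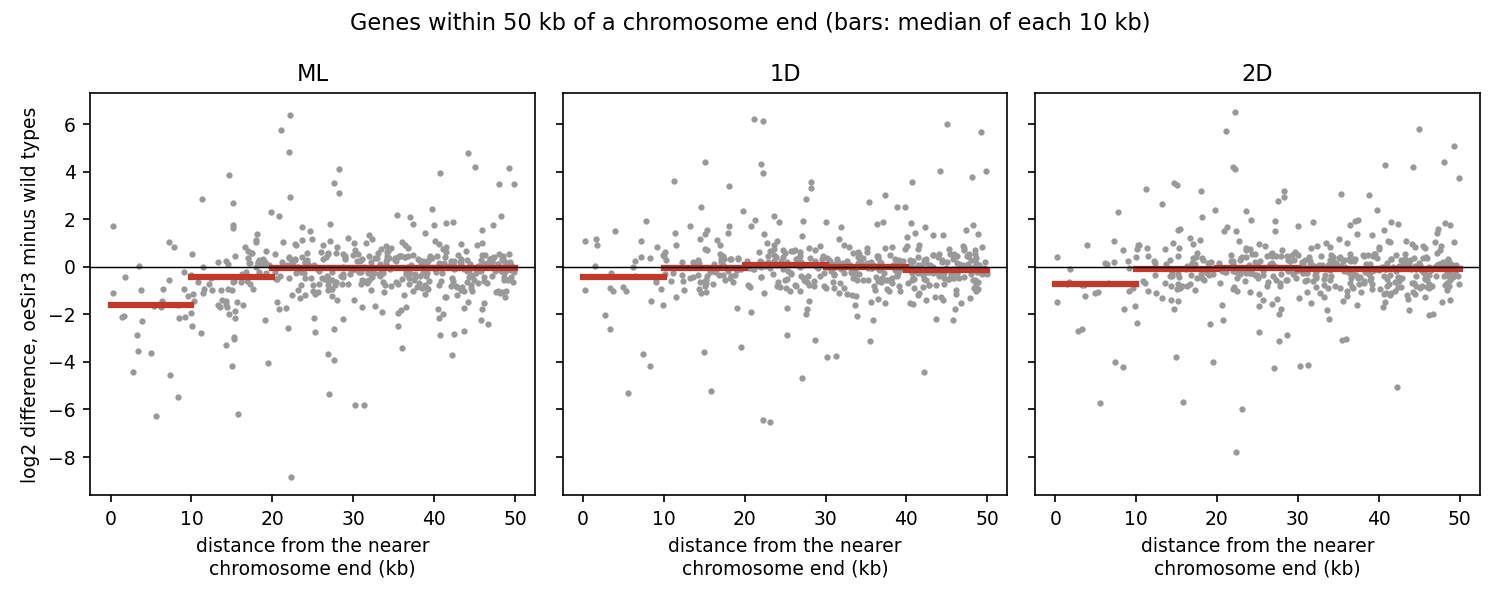
Log2 difference between oeSir3 and wild types for each tested gene within 50 kb of a chromosome end (vertical axis) against its distance from the end in kb (horizontal axis), at each growing time. Red bars give the median of each 10 kb. The bar nearest the end is at -1.62 at ML, -0.44 at 1D and -0.74 at 2D.

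The difference from wild type varied among the 3 times for 5 genes (0.0939% of those tested) by limma's F test at an adjusted p under 0.05, and 177 had an unadjusted p under 0.05. Of these 5 genes 4 lie within 10 kb of an end, where 0.563% of the tested genes lie. That share counts genes that passed the filter over all strains. IRC7, a cysteine desulfhydrase gene, was at 0.160 and 0.301 at ML, 1.48 and 1.33 at 1D, and 1.26 and 0.889 at 2D in oeSir3. In wild type it was at 2.80 to 2.92 at ML and 2.11 to 2.72 at the doublings. Its log2 difference was -3.61 ± 0.27 at ML, -0.83 ± 0.27 at 1D and -1.12 ± 0.27 at 2D (adjusted p of the F test 3.44e-04). COS10, at 3.29 kb, was at 0.0299 and 0.0441 at ML and at 0.133 to 0.194 at the doublings, and at 0.240 to 0.4 in wild type throughout (0.00222).

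BDS1, an alkylsulfatase gene at 6.17 kb, was below all wild-type libraries at ML (0.0399 and 0.0882 against 0.179 to 0.277) and overlapped with them at 1D and 2D (0.00900). YIR042C, at 3.90 kb, had log2 differences of -2.26 ± 0.42 at ML, 1.51 ± 0.42 at 1D and 0.92 ± 0.42 at 2D (0.00222). CSS1, a secreted protein gene at 23.1 kb, differed in the other sense. It was at 0.638 and 0.0294 in oeSir3 at ML, listed at 0 at 1D and 2D, and rose in wild type from at most 0.215 at ML to 0.364 or more at the doublings (0.00222). Without replicate 1 of oeSir3 0 genes passed this F test, and without replicate 2 of wt2 81 did.

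**Figure D5:**
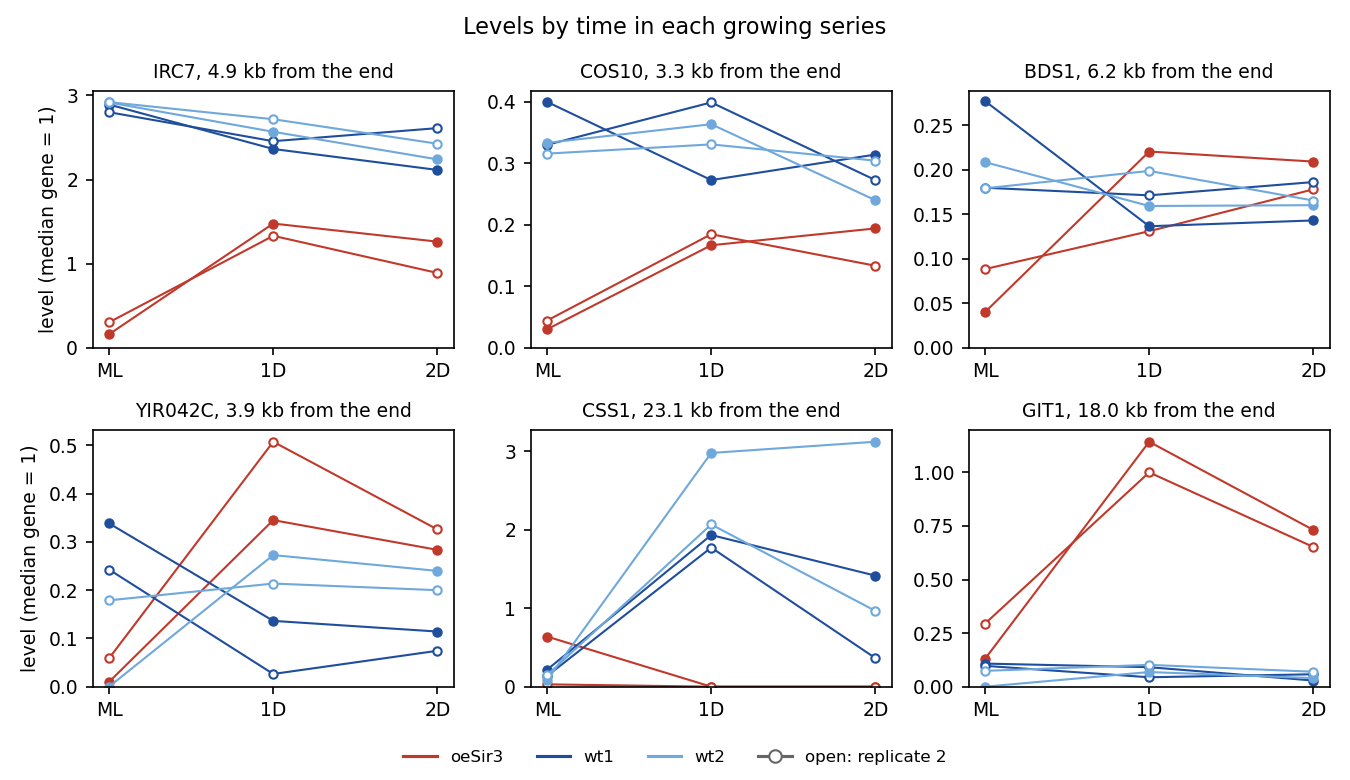
Level of 6 genes (median gene of the library = 1, linear axes from 0) at ML, 1D and 2D in each growing series of oeSir3, wt1 and wt2, with open symbols for replicate 2. IRC7 is at 0.160 and 0.301 at ML in oeSir3 and at 2.80 to 2.92 in wild type. GIT1 had an adjusted p of 0.0742 in the F test.

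The strain without SIR3 in glucose, sir3D, shares the wild-type controls with this comparison, so the values are given side by side. Against wild types, sir3D had 11 genes higher and 31 lower (0.207% and 0.582% of those tested, 0.789% in all). The largest of these differences was that of the pheromone gene MFA2 (-9.34), which was not called in oeSir3 (-0.88). Genes near the ends could pass the filter on low values through sir3D itself. No count of them is therefore given here, and the rises named below cannot be taken as independent of that filter. COS12 was higher in sir3D by 2.91 on the log2 scale and listed at 0 in oeSir3. YIR042C, YGL258W-A and AAD15, also within 10 kb of an end, were higher in sir3D by 1.62, 1.90 and 2.49. They were not called in oeSir3, with log2 differences of 0.05, -0.45 and -0.51. YGL262W was higher in sir3D by 2.18 and listed at 0 in oeSir3. It was at most 0.0455 in wild type, so it passed the filter only through strains outside the comparison. Its rise in sir3D is therefore not independent of that filter. The log2 difference of AIF1 in sir3D was -0.01. For CSS1 the log2 difference was 2.73 in sir3D and -4.18 in oeSir3. Against sir3D directly, 388 genes (7.29%) were higher in oeSir3 and 286 (5.37%) lower. Background and sugar differ in that comparison too.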

How the data were processed

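The series measured poly(A) RNA by RNA-seq, and the members used here are 18 of 112 libraries. The deposited file gives, per its headers, a log2 value for each gene and library: the authors took the median coverage of a coding sequence and scaled it by spiked-in fission yeast RNA. CASAVA 1.7.0 was used, with the S. pombe build ASM294v2, per the submitters' processing notes. Aligner, S. cerevisiae build and use of strand are not given in the sources consulted, so overlapping and antisense genes cannot be told apart; library kits were stranded, of either of a pair of types, per the labels. RNA was mixed with fission yeast RNA by mass, per the labels' protocols, so the scale describes mRNA relative to total RNA.

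Each library holds 1 value off the grid of reads in place of a coverage of 0, which was set back to 0. ACT1 is among the genes at 0, so a 0 can be a failed estimate and is given as listed, with no fold. Tests used log2(linear value + 0.03), so a log2 difference understates the change of low genes. Each library was centred on its median gene and averaged per series, for 5326 genes above 0.15 in at least 4 growing libraries. R 4.3.3 with limma 3.58.1 gave two-sided tests with Benjamini-Hochberg adjustment over all tested genes, and code was tested on simulated data. Python 3.11.15, pandas 2.3.3, numpy 2.4.6 and matplotlib 3.10.9 made tables and plots. Precision is set by depth: 1 read is a large step where the median base of the median gene has 8.0 reads. Of 6319 genes 5694 matched R64, used for names, distances and promoters. The files' own coordinates were not used.

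The comparison, gene lists and tests were chosen with earlier results of these data known. An earlier plan expected linear values. Named genes are SIR1 to SIR4, genotype and galactose genes, the 15 largest rises and falls, genes at 0 in a whole group, leading members of each list, the 10 smallest interaction p-values and called genes near the ends. Other members, and CYC1, were named after their values were seen. Alternatives changed the scale, pseudocount, filter, reference, the way 0 was filled in, replicates and libraries in doubt.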

Additional observations from a re-analysis of the deposited data

Results flagged for a closer look

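The F test of whether the difference between oeSir3 and wild types depends on the growing time marked 5 genes. The adjusted p was 3.44e-04 for IRC7, 0.00222 for COS10, 0.00222 for YIR042C, 0.00222 for CSS1 and 0.00900 for BDS1. Of these, 4 lie within 10 kb of a chromosome end. The test takes each library as an independent value.

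For SSD1, an RNA-binding protein gene, wt2 replicate 1 stood apart from the other 3 wild-type series, at -0.51 on the centred log2 scale against -0.06 to -0.02. The ratio of gap to range was 0.923, above the limit for 4 values. Chance alone marks about 1 in 20 such groups, and of the genotype and galactose genes examined only SSD1 was marked. The ML and 2D libraries of wt2 replicate 1 were in doubt for depth, with 8.0 and 9.0 reads over the median base of the median gene. SSD1 itself was at 0.23 ± 0.26 in oeSir3 against wild types (limma adjusted p = 0.590).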

How the results depend on the processing

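The counts of genes higher in oeSir3 stayed within 1.5 times of 441 under each alternative run. The 310 genes lower became 66 on the spike-in scale and 206 with replicate 2 of the wild types alone. On the spike-in scale the lower genes were 51 at ML, 61 at 1D and 49 at 2D, and within 10 kb of an end 4, and 6 at ML. Leaving out each series in turn gave 358 to 440 genes higher and 191 to 422 lower. By time it gave 237 to 433 higher and 144 to 729 lower at ML, 305 to 442 and 145 to 319 at 1D, and 282 to 489 and 144 to 497 at 2D. It gave 0 to 81 genes that varied among the times, 12 to 13 galactose genes, 9 to 10 genes lower within 10 kb and 9 to 16 at ML. SIR3 ran from 5.55 to 5.89 and the median gene difference from 0.37 to 0.89. That difference was 0.24 (exact permutation p = 0.667) with replicate 2 of the wild types alone, and 0.14 for the total over all genes. The lowest counts at ML and 1D came without oeSir3 replicate 1 and at 2D without oeSir3 replicate 2, and the highest at ML without wt2 replicate 2; the causes were not tested.

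Same-numbered replicates of oeSir3 and wild types did not deviate together (correlations -0.08 and -0.20), so the number does not pair them. Same-numbered series of wt1 and wt2 did (0.78), and the comparison counts those 4 series as independent. With the replicate block 464 genes were higher, 400 lower, and 10 varied among the times. Bins of 5 kb gave 25% lower nearest the end, against 33.3%. With no filter on low values 448 were higher and 344 lower. Of 141 called genes among those named, 98 kept the call under every alternative of the comparison over series. Signs turned for BAR1, a called gene, and for 6 genes that were not called. On the spike-in scale these were BDS1 (0.16), HIS3 (0.64), SIR4 (0.63) and YGL258W-A (0.23), and with upper quartile centring HIS3 (0.057) and SIR4 (0.042). Against wt1 alone BAR1 was at -0.64 in place of 1.94, and HIS3 at 0.17, and against wt2 alone YIR042C at -0.19. YIR042C was at -0.035 with a pseudocount of 0.09, -0.082 with the value for 0 kept, -0.10 without the libraries in doubt and -0.088 without the ML library of wt2 replicate 1. HIS3 was at 0.32 and 0.34 in the last pair. With a series left out HIS3 ran from -0.21 to 0.14, SIR4 from -0.17 to 0.077, SSD1 from -0.028 to 0.48 and YIR042C from -0.37 to 0.48. The alternatives of leaving out the wt2 ML library alone, of the libraries in doubt by time, of replicate 2 of the wild types for the median gene, of the block for wt1 against wt2 and of the filter within the 18 libraries were chosen after seeing the data.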

Other observations

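A small set of genes was listed at 0 in every wild-type library of one replicate number and above 0.5 in all of the other. There were 11 such genes, 10 at 0 in replicate 1 and YER138W-A at 0 in replicate 2, and 0 of them were called. CLN3, the cyclin gene that starts the cell cycle, was at 0 in the 6 libraries of replicate 1, at 0.958 to 1.46 in replicate 2 and at 1.5 to 2.43 in oeSir3. TUB3, an alpha-tubulin gene, was at 0 in replicate 1, at 2.81 to 31.4 in replicate 2 and at 16.1 to 24.0 in oeSir3. VTC4, a polyphosphate synthase gene, was at 0 in replicate 1, at 6.33 to 10.4 in replicate 2 and at 4.93 to 6.90 in oeSir3. These genes were picked after their values were seen, and their log2 differences in the pooled comparison average 2 kinds of value.

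Of the genes listed at 0 in all 6 oeSir3 libraries and above 0 in all 12 wild-type libraries there were 8, and 9 showed the reverse. The first set has HXT1, YBR012C, YBR013C, AIF1, PDR18, ECM12, COS12 and PHO11. The reverse set has GAL10, MET17, URA3, LEU2, YGR067C, YGR068W-A, MAL12, POX1 and YJR114W. YBR012C was at 0.932 to 4.17 in wild type and YBR013C at 0.708 to 5.67.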
